A study of Mus musculus with 18 samples.

Results

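STAT proteins (signal transducers and activators of transcription) are transcription factors that carry signals of cytokine receptors to the nucleus, and 6 of their genes were examined here among the 34896 genes of a mouse expression table: Stat2, Stat3, Stat4, Stat5a, Stat5b and Stat6. They were chosen by symbol, and all 6 were expressed above the filter of at least 1 TPM (a share of each library's transcripts scaled by gene length, here summing to 1000000) in at least 3 libraries that left 13061 genes for testing. The cells came from bone marrow of C57BL/6 mice aged 6 to 12 weeks and were granulocyte monocyte progenitors (GMPs), the pre-neutrophils that arise from them (preNeu) and mature neutrophils (matNeu), all sorted by surface markers. RNA-seq was done on 3 wild type libraries of each cell type. ChIP-seq, which sequences the DNA recovered with an antibody, gave 1 peak list each for CHD4 in wild type (WT) and Gfi1-/- GMPs and for H3K4me2 in wild type GMP, preNeu and matNeu cells. CHD4 is an ATPase of the nucleosome remodeling and deacetylase complex NuRD, GFI1 is a repressor of transcription needed for neutrophil development that the Gfi1-/- mice lack, and H3K4me2 is a histone mark of promoters and enhancers. No RNA of Gfi1-/- cells was used here, so that the loss of Gfi1 could not be checked on its transcript.

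Cytokine binding brings Janus kinases (JAKs) together on the receptor, the JAKs phosphorylate STAT proteins, and the STAT dimers bind DNA and turn on target genes. STAT2 works with IRF9 in the response to type I interferon, STAT3 follows receptors such as those of G-CSF and IL-6, STAT4 follows IL-12, STAT5A and STAT5B follow GM-CSF, IL-3 and other growth factors, and STAT6 follows IL-4 and IL-13. In the neutrophil lineage STAT3 is best known for G-CSF signaling and STAT5 for the survival and growth of progenitors. STAT dimers bind inverted repeats of TTC and GAA with 3 bases between them, and STAT6 prefers 4.

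The sequences that go with the results lie at Stat2 and Stat4, where most CHD4 peaks of the STAT genes were found. Each is the 201 bp window around a CHD4 peak summit of WT GMPs, on the plus strand of GRCm38. Capitals mark a match to TTCNNNGAA or TTCNNNNGAA (the STAT motifs) or to GAGGAAGT (a motif of SPI1, a myeloid transcription factor) on either strand, and a window without capitals holds none of them. Both windows upstream of Stat2 are shown for their STAT motifs.
Stat2, chr10:128263194-128263394: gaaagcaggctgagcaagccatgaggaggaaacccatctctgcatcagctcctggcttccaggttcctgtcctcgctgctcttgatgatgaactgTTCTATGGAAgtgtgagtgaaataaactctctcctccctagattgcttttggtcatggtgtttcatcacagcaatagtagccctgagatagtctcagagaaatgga
Stat2, chr10:128263933-128264133: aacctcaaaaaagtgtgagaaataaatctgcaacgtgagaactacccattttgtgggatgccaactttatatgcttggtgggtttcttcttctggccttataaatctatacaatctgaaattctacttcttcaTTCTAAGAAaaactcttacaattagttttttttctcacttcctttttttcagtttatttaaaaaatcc
From Stat4 the 4 windows of highest fold enrichment are shown, all intronic, of which the last 3 also had a peak in Gfi1-/- GMPs.
Stat4, chr1:52011372-52011572: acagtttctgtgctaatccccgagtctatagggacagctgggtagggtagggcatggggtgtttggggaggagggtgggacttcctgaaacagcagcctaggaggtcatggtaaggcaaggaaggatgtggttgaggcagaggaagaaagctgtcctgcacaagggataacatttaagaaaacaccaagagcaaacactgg
Stat4, chr1:52012762-52012962: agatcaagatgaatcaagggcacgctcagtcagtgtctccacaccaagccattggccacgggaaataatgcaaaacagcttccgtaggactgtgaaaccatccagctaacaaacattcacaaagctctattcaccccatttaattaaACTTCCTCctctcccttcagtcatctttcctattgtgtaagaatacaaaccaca
Stat4, chr1:52014454-52014654: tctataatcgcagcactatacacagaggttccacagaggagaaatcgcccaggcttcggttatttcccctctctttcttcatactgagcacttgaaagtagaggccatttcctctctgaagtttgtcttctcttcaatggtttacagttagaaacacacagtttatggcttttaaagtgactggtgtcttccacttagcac
Stat4, chr1:52022281-52022481: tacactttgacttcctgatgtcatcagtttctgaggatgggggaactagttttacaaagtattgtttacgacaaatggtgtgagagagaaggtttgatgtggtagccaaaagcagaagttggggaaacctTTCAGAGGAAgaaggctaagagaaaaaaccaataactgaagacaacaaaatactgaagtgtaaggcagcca

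In matNeu cells 5 of the 6 STAT genes were higher than in GMPs and 1, Stat5a, was lower (limma on log2(TPM + 1), adjusted p under 0.05). Stat3 and Stat6 were the most abundant of these 6 transcripts in each cell type and had the largest increases. The same table called 22.8% of all tested genes higher and 54.1% lower in matNeu cells, and its median gene moved by -0.92 on the log2 scale. The 9 libraries fell into 3 groups by their marker genes as the titles say. The 7 GMP markers summed to 45280 to 47160 TPM in GMPs and to 10.1 to 33.2 TPM in matNeu cells, while the 7 matNeu markers summed to 740 to 858 TPM in GMPs and to 32410 to 35870 TPM in matNeu cells. Nothing in the labels says that the 3 libraries of a cell type came from separate animals, so that the p-values measure only the spread between these libraries, which may be technical.

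TPM is a share, and the 10 most abundant genes took 9.15% to 9.78% of the transcripts in GMPs, 24.1% to 28.3% in preNeu cells and 12.7% to 15.9% in matNeu cells. Therefore the changes of the STAT genes and the JAK kinases are also given after median-ratio scaling, in which every library was divided by its median ratio to a common reference over genes. That scaling brought the median gene to -0.11 between matNeu and GMP, to -0.08 between preNeu and GMP and to 0 between matNeu and preNeu, where TPM as deposited gave -0.92, -0.52 and -0.32. The share of higher genes among all called genes went from 29.6% to 47.2% for matNeu against GMP, from 25% to 46% for preNeu against GMP and from 36.5% to 49.7% for matNeu against preNeu. In these bulk samples fewer cells of a type and less RNA per cell cannot be told apart.

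Stat3 (ENSMUSG00000004040, GRCm38 chr11:100885098-100939540, minus strand) was measured at 73.3, 96.3 and 90.8 TPM in the GMP libraries, at 131, 163 and 172 TPM in the preNeu libraries and at 346, 369 and 369 TPM in the matNeu libraries. The 3 cell types did not overlap and rose in the order of maturation. The log2 change was 0.83 (SE 0.14, limma adjusted p = 0.000545) from GMP to preNeu, 1.22 (adjusted p = 2.31e-05) from preNeu to matNeu and 2.05 (adjusted p = 2.05e-07) from GMP to matNeu. With median-ratio scaling the same changes were 1.36, 1.69 and 3.05. The 3 genes with the pattern most like that of Stat3 over the 9 libraries, by Pearson's r of log2(TPM + 1), were Entpd1 (r = 0.998), Asb7 (r = 0.997) and Adipor1 (r = 0.995), a description over libraries of only 3 cell types.

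Stat6 (ENSMUSG00000002147, chr10:127642986-127660957, plus strand) stood at 79.6, 101 and 90.3 TPM in GMPs and at 94.7, 102 and 134 TPM in preNeu cells, and these ranges overlapped. In matNeu cells it reached 377, 356 and 450 TPM, above every other library. The step from preNeu to matNeu was 1.84 (SE 0.16, limma adjusted p = 2.36e-06) and the change from GMP to matNeu was 2.11 (adjusted p = 4.04e-07), or 2.31 and 3.11 with median-ratio scaling. The log2 difference between preNeu cells and GMPs was 0.27 (adjusted p = 0.168) on TPM as deposited and 0.80 (adjusted p = 0.000629) with median-ratio scaling. Its closest genes in pattern were Itgax (r = 0.996), which encodes the integrin CD11c, Gpcpd1 (r = 0.995) and Il13ra1 (r = 0.995), a chain of the IL-13 receptor.

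Stat4 (ENSMUSG00000062939, chr1:51987148-52107189, plus strand) had 26.5, 23.7 and 22.6 TPM in GMPs, 42.4, 44.8 and 58.0 TPM in preNeu cells and 67.2, 90.2 and 86.0 TPM in matNeu cells. No cell types overlapped. The log2 changes were 0.96 (SE 0.17, limma adjusted p = 0.000758) from GMP to preNeu and 0.74 (adjusted p = 0.00339) from preNeu to matNeu. From GMP to matNeu it rose by 1.69 (adjusted p = 4.66e-06). With median-ratio scaling these changes were 1.47, 1.20 and 2.67. STAT4 is best known from T and NK cells, and markers of those cells were measured in the same libraries. The 5 T cell markers summed to 4.53 to 11.1 TPM in GMPs, 2.40 to 4.97 TPM in preNeu cells and 9.43 to 15.1 TPM in matNeu cells, with Cd3e at 0 in every GMP library and Bcl11b at 0 in every preNeu and matNeu library. Among them Cd3d, a chain of the T cell receptor complex, was higher in matNeu cells, at 6.57 to 14.1 TPM, than in GMPs, at 2.34 to 3.29 TPM (1.45, limma adjusted p = 0.00336). The 5 NK cell markers summed to 11.3 to 21.7, 0.220 to 3.995 and 1.04 to 4.86 TPM, with Eomes at 0 in every preNeu and matNeu library and Klrk1 at 10.7 to 21.2 TPM in GMPs. The part of such cells in the Stat4 values was not tested. The genes most like Stat4 in pattern were Capza1 (r = 0.994), Cmpk2 (r = 0.990) and Scn2b (r = 0.988).

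Stat2 (ENSMUSG00000040033, chr10:128270559-128292849, plus strand) had 27.3, 26.9 and 22.3 TPM in GMPs and 23.1, 28.4 and 22.2 TPM in preNeu cells, ranges that overlapped. The log2 difference was -0.05 (SE 0.17, limma adjusted p = 0.814), and 0.46 (adjusted p = 0.055) with median-ratio scaling. In matNeu cells Stat2 had 55.8, 65.1 and 49.2 TPM, above all 6 other libraries, a change of 1.17 (adjusted p = 0.000141) from preNeu and 1.12 (adjusted p = 0.000127) from GMP (1.63 and 2.09 with median-ratio scaling). The table gives its row the transcript type retained_intron, and whether its TPM covers all transcripts of the gene is not given in the sources used here. Ppp1r1c (r = 0.995, a gene of low level at 0.294 TPM on average in GMPs), Ncald (r = 0.987) and Aldoa (r = 0.986) followed Stat2 most closely.

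**Figure D1:**
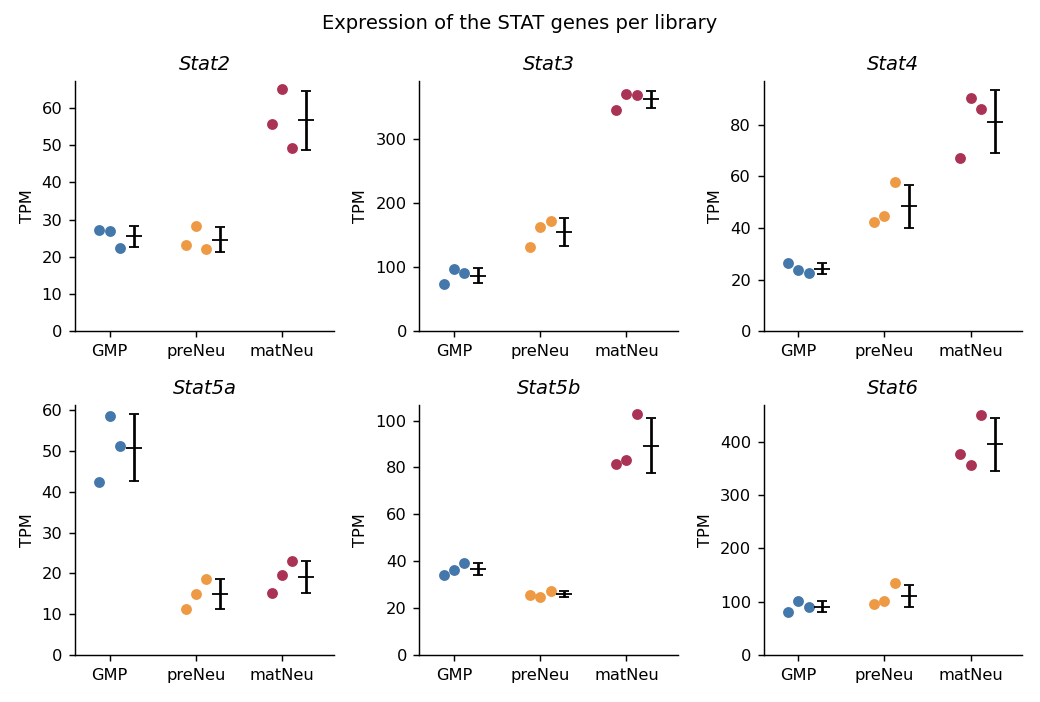
TPM of each STAT gene (y axis) in the 3 libraries of each cell type (points, x axis), with the mean and SD beside them as a bar. Stat2, Stat3, Stat4, Stat5b and Stat6 were highest in matNeu cells, Stat5a was highest in GMPs, and Stat5b was lowest in preNeu cells on TPM as deposited.

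Stat5a and Stat5b, neighbours on chromosome 11 that encode closely related proteins, changed to different extents. Their calls were in opposite directions only from GMP to matNeu on TPM as deposited. Stat5a (ENSMUSG00000004043, chr11:100859351-100885169, plus strand) had 42.3, 58.7 and 51.3 TPM in GMPs, 11.2, 15.0 and 18.6 TPM in preNeu cells and 15.1, 19.5 and 23.0 TPM in matNeu cells. Every GMP library was above every other library, and preNeu and matNeu overlapped. It fell by 1.71 on the log2 scale (SE 0.23, limma adjusted p = 0.000107) from GMP to preNeu, which held with median-ratio scaling at -1.19 (adjusted p = 0.000846). Between GMP and matNeu the log2 change was -1.36 (adjusted p = 0.000256), but -0.39 (adjusted p = 0.109) with median-ratio scaling, so that this call depended on the scaling. From preNeu to matNeu it was 0.35 (adjusted p = 0.213), and 0.80 (adjusted p = 0.00636) with median-ratio scaling. Several lists of markers of other cells were also highest in GMPs. The 5 genes of eosinophils, basophils and mast cells summed to 1147 to 1405 TPM in GMPs, 108 to 171 TPM in preNeu cells and 38.0 to 50.0 TPM in matNeu cells, where Epx was at 0. Markers of monocytes and macrophages summed to 2942 to 3616, 1665 to 2205 and 1125 to 1493 TPM, and megakaryocyte markers to 35.4 to 50.0, 5.96 to 10 and 5.005 to 8.29 TPM. The sum of the 5 NK cell markers was highest in GMPs too, through Klrk1, since the other 4 were below 1 TPM in every GMP library. Of those 4, Ncr1, Klrb1c and Prf1 had their highest single values in matNeu libraries and Eomes in a GMP library. Sums for B cells, T cells and erythroid cells overlapped between GMPs and matNeu cells. The part of such cells in the Stat5a values was not tested. Dcaf8 (r = 0.995), Taf1a (r = 0.988) and Xab2 (r = 0.986) had the most similar patterns.

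Stat5b (ENSMUSG00000020919, chr11:100780731-100850724, minus strand) was lowest in preNeu cells, with 25.7, 24.7 and 27.2 TPM against 34.1, 36.3 and 39.3 TPM in GMPs and 81.6, 83.3 and 103 TPM in matNeu cells. The 3 cell types did not overlap. The rise from preNeu to matNeu was 1.74 (SE 0.15, limma adjusted p = 1.72e-06) and that from GMP to matNeu 1.26 (adjusted p = 1.26e-05), or 2.21 and 2.24 with median-ratio scaling. The fall from GMP to preNeu was small, at -0.48 (adjusted p = 0.0148). With median-ratio scaling it was 0.03 (adjusted p = 0.86), and without the third GMP library it was -0.43 (adjusted p = 0.051). The genes most like Stat5b were Piwil2 (r = 0.997) and Sfmbt2 (r = 0.997), both listed at 0 in preNeu cells, and Rbm38 (r = 0.995).

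The ratio of Stat5a to Stat5b within a library does not depend on how the library is scaled. It was 1.24, 1.62 and 1.30 in GMPs, 0.436, 0.609 and 0.685 in preNeu cells and 0.185, 0.234 and 0.223 in matNeu cells. Stat5a was thus the more abundant transcript in all 3 GMP libraries and Stat5b in all 6 others, and no cell types overlapped. On the log2 scale the ratio was 0.46 ± 0.20 (SD, n = 3) in GMPs, -0.82 ± 0.34 in preNeu cells and -2.23 ± 0.18 in matNeu cells. The differences were -1.28 (preNeu minus GMP), -1.41 (matNeu minus preNeu) and -2.69 (matNeu minus GMP), each with p = 0.1 in a two-sided exact permutation test, adjusted p = 0.1 over the 3 pairs, which is the smallest value that 3 libraries against 3 can give. The coding sequences of the 2 genes are much alike, and how reads that fit both were shared between them is not given in the sources used here.

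**Figure D2:**
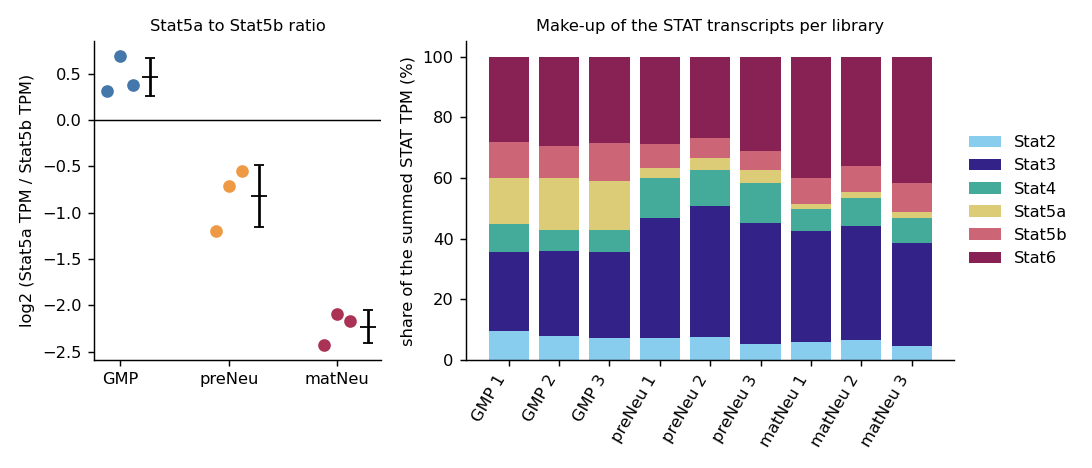
Left, log2 of the Stat5a to Stat5b TPM ratio (y axis) per library (points) with mean and SD (bar) by cell type, where the line at 0 marks equal TPM. Right, share in percent of the summed TPM of the 6 STAT genes (y axis) taken by each gene in each library, with Stat5a between 14.9% and 17.1% in GMPs and between 1.61% and 2.13% in matNeu cells.

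In GMPs the order of mean TPM was Stat6 (90.3 ± 10.7, SD, n = 3), Stat3 (86.8 ± 12.0), Stat5a (50.7 ± 8.19), Stat5b (36.6 ± 2.61), Stat2 (25.5 ± 2.77) and Stat4 (24.2 ± 2.00). The library ranges of Stat6 and Stat3 overlapped, as did those of Stat2 and Stat4. In preNeu cells the order was Stat3 (155 ± 21.9), Stat6 (110 ± 20.9), Stat4 (48.4 ± 8.402), Stat5b (25.8 ± 1.28), Stat2 (24.6 ± 3.34) and Stat5a (14.9 ± 3.72). Here the ranges of Stat3 and Stat6 overlapped, and so did those of Stat5b and Stat2. In matNeu cells the order was Stat6 (395 ± 49.5), Stat3 (361 ± 13.6), Stat5b (89.3 ± 11.8), Stat4 (81.1 ± 12.2), Stat2 (56.7 ± 8.00) and Stat5a (19.2 ± 3.92). The ranges of Stat6 and Stat3 and those of Stat5b and Stat4 overlapped. The 6 genes together had 283 to 343 TPM in GMPs, 328 to 432 TPM in preNeu cells and 942 to 1080 TPM in matNeu cells. Stat3 took 25.9% to 28.7% of this sum in GMPs and 39.8% to 43.2% in preNeu cells, while Stat6 took 28.1% to 29.5% in GMPs and 36.2% to 41.7% in matNeu cells.

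From GMP to preNeu 2 members were higher (Stat3 and Stat4), 2 were lower (Stat5a and Stat5b) and 2 did not pass (Stat2 and Stat6), where 14.7% of all tested genes were higher and 44.3% lower. With median-ratio scaling 3 were higher and 1 lower, where 3068 of all tested genes were higher and 3600 lower. From preNeu to matNeu 5 were higher and Stat5a did not pass, where 22.9% of all tested genes were higher and 39.8% lower. With median-ratio scaling all 6 were higher in that step, where 4169 of all tested genes were higher and 4219 lower. From GMP to matNeu 5 were then higher and 0 lower, where 4709 of all tested genes were higher and 5267 lower. These comparisons share libraries and are not independent of each other.

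**Figure D3:**
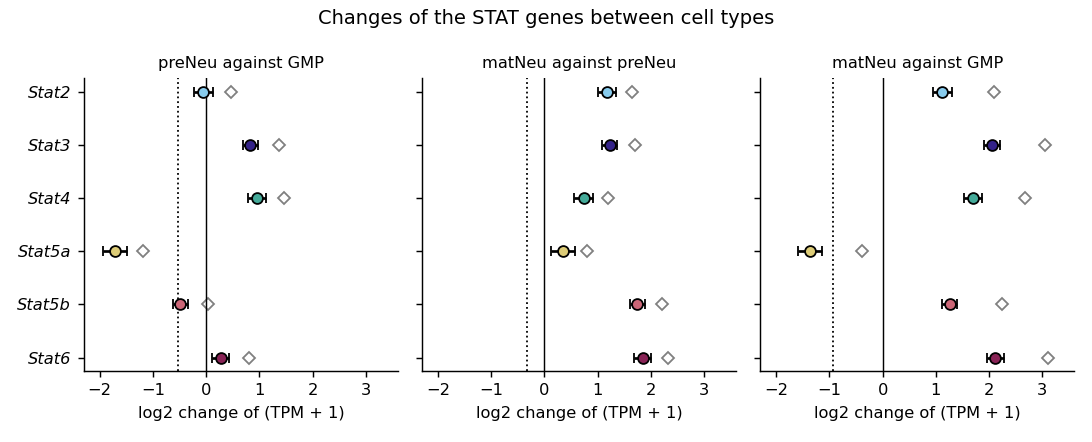
Log2 change of (TPM + 1) for each STAT gene (x axis) in the 3 comparisons, as filled points with SE, and with median-ratio scaling as open diamonds, with the median of all 13061 tested genes on TPM as deposited as a dotted line. Each diamond lies to the right of its point, and Stat5a is the only gene left of 0 in the last panel.

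Of the 4 JAK kinases, Jak1 and Jak2 were higher in matNeu cells than in GMPs and Jak3 and Tyk2 were lower. Among all tested genes 22.8% were higher and 54.1% lower. Jak1, which serves the interferon, IL-6 and IL-4 receptors, had 85.9 ± 10.1 TPM (SD, n = 3) in GMPs, 124 ± 18.0 in preNeu cells and 441 ± 13.4 in matNeu cells, a log2 change of 2.35 (SE 0.14, limma adjusted p = 5.11e-08) from GMP to matNeu. Jak2, used by the receptors of GM-CSF and IL-3, went from 8.98 ± 2.23 to 18.8 ± 3.46 TPM (0.99, adjusted p = 0.00412). Jak3, the partner of the common gamma chain, went from 33.8 ± 6.49 to 15.1 ± 0.780 TPM (-1.10, adjusted p = 0.000854), and Tyk2, which serves interferon and IL-12 receptors, from 53.3 ± 5.71 to 24.3 ± 3.51 TPM (-1.10, adjusted p = 9.24e-05). With median-ratio scaling the changes were 3.35 for Jak1 and 1.91 for Jak2. Both falls were lost with that scaling, at -0.14 (adjusted p = 0.537) for Jak3 and -0.13 (adjusted p = 0.484) for Tyk2.

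Of 34 cytokine receptors that signal through JAK and STAT, 27 were expressed enough for the test, and 14 were higher and 10 lower in matNeu cells than in GMPs, with a median log2 change of 1.02 against -0.92 over all tested genes (16 and 7 with median-ratio scaling). The shares of all tested genes in that comparison were 22.8% higher and 54.1% lower on TPM as deposited. Their counts with median-ratio scaling were 4709 higher and 5267 lower. Csf3r, the G-CSF receptor and one of the 7 matNeu markers, went from 135 ± 6.00 to 206 ± 17.6 to 3874 ± 502 TPM along GMP, preNeu and matNeu, and Il13ra1 from 0.754 ± 0.495 to 1.47 ± 1.68 to 160 ± 27.5 TPM. In log2 terms from GMP to matNeu these were 4.82 (limma adjusted p = 2.18e-10) and 6.55 (adjusted p = 1.33e-07). The largest falls were those of Il6st, the gp130 chain shared by receptors of the IL-6 family, and of Il21r, the IL-21 receptor. Il6st had 39.9 ± 4.33 TPM in GMPs, 0.771 ± 0.750 in preNeu cells and 0.981 ± 1.35 in matNeu cells, a change of -4.57 (adjusted p = 3.3e-06). Il21r had 35.0 ± 4.12, 9.12 ± 2.75 and 2.86 ± 0.481 TPM (-3.23, adjusted p = 5.78e-07). From GMP to preNeu 3 receptors were higher and 14 lower, where 14.7% of all tested genes were higher and 44.3% lower on TPM as deposited. The split of the receptors became 9 and 11 with median-ratio scaling, where 3068 of all tested genes were higher and 3600 lower.

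Of 16 inhibitors of JAK-STAT signaling, 8 were higher and 6 lower in matNeu cells than in GMPs, and the median was 0.36 (10 and 4 with median-ratio scaling). Among all tested genes 22.8% were higher and 54.1% lower on TPM as deposited, with a median of -0.92. Their counts with median-ratio scaling were 4709 higher and 5267 lower. Socs3, which binds gp130 and the G-CSF receptor and is itself a STAT3 target, was below 1 TPM in all 6 GMP and preNeu libraries and stood at 200, 184 and 299 TPM in matNeu cells, a change of 7.56 (limma adjusted p = 1.49e-09). Ptpn1, a tyrosine phosphatase that acts on JAK2 and TYK2, rose from 66.3 ± 16.9 to 395 ± 28.2 TPM (2.58, adjusted p = 3.22e-07). Pias2 went from 16.3 ± 5.21 to 3.42 ± 0.939 TPM (-1.95, adjusted p = 5.65e-05) and Socs6 from 33.7 ± 2.82 to 9.75 ± 1.38 TPM (-1.69, adjusted p = 3.76e-05).

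**Figure D4:**
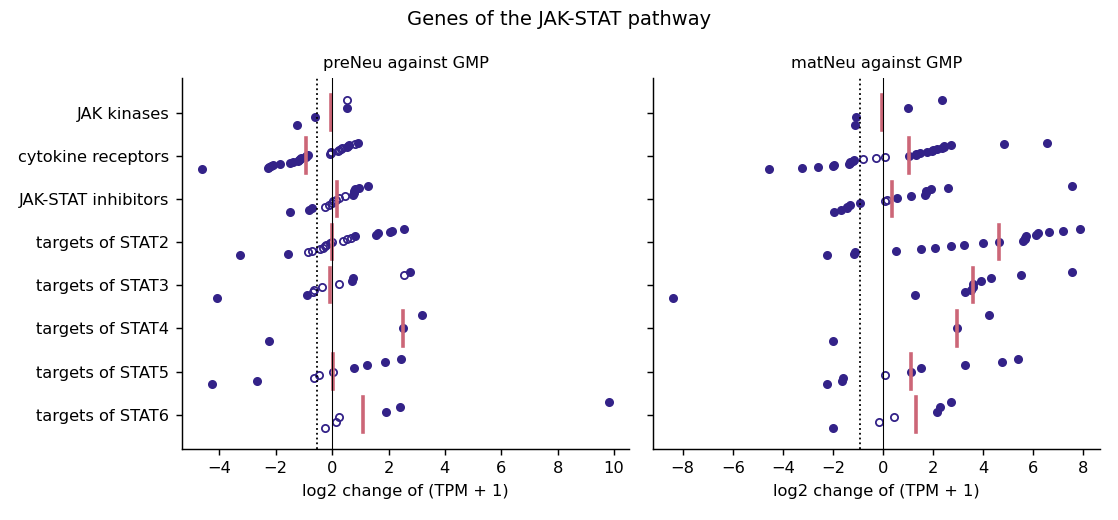
Log2 change of (TPM + 1) (x axis) of each tested gene of the JAK-STAT lists (points, filled where the limma adjusted p was under 0.05) for preNeu and for matNeu cells against GMPs, with the list median as a vertical bar and the median of all tested genes as a dotted line. The targets of STAT2 center near 0 in preNeu cells and at 4.61 in matNeu cells.

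Genes known as targets of the STAT factors were counted by factor. Across the lists of receptors, inhibitors and targets, 7 genes stood in more than 1 list and were counted in each. Against GMPs, 22.8% of all tested genes were higher and 54.1% lower in matNeu cells on TPM as deposited. In preNeu cells these shares were 14.7% and 44.3%. With median-ratio scaling 4709 of all tested genes were higher and 5267 lower in matNeu cells. Of 19 tested interferon targets of STAT2, 16 were higher and 3 lower in matNeu cells than in GMPs, with a median of 4.61 (16 and 1 with median-ratio scaling), and in preNeu cells 6 were higher and 2 lower with a median near 0. Ifit3, an interferon-induced protein, went from 0.433 ± 0.491 in GMPs to 4.87 ± 1.81 in preNeu cells and to 323 ± 36.9 TPM in matNeu cells (7.87 from GMP to matNeu, limma adjusted p = 2.34e-09), and its near copy Ifit3b, with which it may share reads, from 0.486 ± 0.586 to 0.895 ± 0.598 to 207 ± 29.9 TPM (7.19, adjusted p = 8.49e-09). The falls were those of Bst2, the membrane protein tetherin, from 61.3 ± 3.05 to 12.4 ± 2.56 TPM (-2.23, adjusted p = 2.08e-05), Mx1 (-1.16, adjusted p = 0.0156) and Ifi44 (-1.13, adjusted p = 0.0182). Both lost their call with median-ratio scaling, at -0.51 (adjusted p = 0.218) for Mx1 and -0.55 (adjusted p = 0.172) for Ifi44. Mx1 also lost it without matNeu replicate 2 (adjusted p = 0.0531) and without GMP replicate 3 (adjusted p = 0.0515).

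Of 10 targets of STAT3, 9 were higher in matNeu cells than in GMPs and 1 was lower, with a median of 3.58. Among all tested genes 22.8% were higher and 54.1% lower. Junb, an AP-1 subunit, had 44.5 ± 2.25 TPM in GMPs, 23.8 ± 3.19 in preNeu cells and 2088 ± 434 in matNeu cells (5.50 from GMP to matNeu, limma adjusted p = 5.45e-10). Myc, the growth regulator, had 386, 462 and 438 TPM in GMPs, 17.2, 26.3 and 31.4 TPM in preNeu cells and 0.0890, 0.468 and 0.349 TPM in matNeu cells (-8.37, adjusted p = 3.65e-10). It was the 1 gene of the list that fell.

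Of 5 targets of STAT4, 3 were tested, and Ifng and Tbx21 were too low. Il18rap, an IL-18 receptor chain, went from 11.4 ± 3.23 to 109 ± 15.3 to 228 ± 23.5 TPM along the 3 cell types (4.23 from GMP to matNeu, limma adjusted p = 7.77e-09), and Il18r1, the other chain, from 0.667 ± 0.589 to 8.18 ± 1.62 to 11.4 ± 0.855 TPM (2.96, adjusted p = 6.26e-06). Il12rb2, a chain of the IL-12 receptor upstream of STAT4, fell from 4.31 ± 2.13 TPM to 0.303 ± 0.452 TPM (-1.99, adjusted p = 0.000447).

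Of 9 tested targets of STAT5, 5 were higher and 3 lower in matNeu cells than in GMPs, with a median of 1.10 (6 and 1 with median-ratio scaling). Among all tested genes 22.8% were higher and 54.1% lower in that comparison on TPM as deposited. Their counts with median-ratio scaling were 4709 higher and 5267 lower. Osm, the cytokine oncostatin M, had 6.37 ± 0.733, 26.2 ± 4.21 and 329 ± 164 TPM (5.38 from GMP to matNeu, limma adjusted p = 2.48e-08), and Bcl6, a repressor, had 0.786 ± 0.422, 8.71 ± 2.76 and 46.3 ± 4.17 TPM (4.75, adjusted p = 4.15e-08). The cyclins Ccnd1 and Ccnd2 were lower in matNeu cells than in GMPs, at -2.24 (adjusted p = 4.48e-05) and -1.62 (adjusted p = 0.000101), the latter -0.63 (adjusted p = 0.0538) with median-ratio scaling. Of 6 tested targets of STAT6, 3 were higher and 1 was lower in matNeu cells than in GMPs. From preNeu to matNeu 2 were higher and 4 lower, with a median of -1.87, among them Chil3, a chitinase-like protein and preNeu marker, which went from 40629 ± 3200 to 200 ± 19.9 TPM (-7.66, adjusted p = 4.9e-10). In that step 22.9% of all tested genes were higher and 39.8% lower, with a median of -0.32. Il4ra, the IL-4 receptor chain that STAT6 binds, rose from 29.5 ± 4.22 TPM in GMPs to 199 ± 27.2 TPM in matNeu cells (2.71, adjusted p = 8.74e-08). Egr2, a zinc finger transcription factor, rose from 0.0344 ± 0.0596 to 4.05 ± 1.28 TPM (2.26, adjusted p = 2.3e-05). Arg1, arginase, was at 2.07, 3.22 and 4.08 TPM in GMPs and listed at 0 in all 3 matNeu libraries (limma adjusted p = 5.49e-05).

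CHD4 was looked for in each STAT gene and 10 kb on either side, which held 10 peaks of WT GMPs and 3 of Gfi1-/- GMPs. With 1 library per genotype there was no replicate check and no test, and the depth of the libraries is unknown. WT peaks lay at 4 of the 6 genes, where 41.8% of 13035 tested genes with a match in the annotation had one. Stat4 had 6 of the 10 peaks, and 9.22% of these genes had 6 or more. At 120042 bp Stat4 is longer than the median gene of this set, at 19813 bp. Gfi1-/- peaks lay at 1 gene, Stat4, where 13.8% of the genes had one. The whole WT list held 35790 peaks and the whole Gfi1-/- list 7316.

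The 6 CHD4 peaks of Stat4 in WT GMPs lay 21.4 to 41.7 kb downstream of the annotated 5′ start, in the first part of the gene. From 5′ to 3′ their fold enrichment over background was 5.84, 15.7, 23.1, 12.1, 23.4 and 8.07. The first lay 348 bp downstream of a second start of principal transcripts of the GENCODE annotation, 21095 bp into the gene, and the others were intronic. In Gfi1-/- GMPs peaks overlapped the third, the fourth and the fifth, with fold enrichments of 4.91, 7.77 and 8.36. All 6 WT peaks overlapped H3K4me2 peaks of preNeu and of matNeu cells, and 4 overlapped H3K4me2 peaks of GMPs. The peaks with a Gfi1-/- counterpart correspond to the last 3 windows printed for Stat4, and the window of the second peak, at 15.7, had no Gfi1-/- peak.

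The WT peaks of the other genes had fold enrichments of 4.25 to 7.14, and none had a peak in Gfi1-/- GMPs. Stat2 had a pair of peaks, 7.3 kb (fold enrichment 7.14) and 6.5 kb (5.58) upstream of its start. Stat3 had an intronic peak 3.9 kb downstream of its start (5.25), and Stat6 had a peak 7.6 kb upstream (4.25). Stat5a and Stat5b had 0 WT peaks and 0 Gfi1-/- peaks in their windows, as called by the authors.

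Of the 10 WT peaks at STAT genes 3 had a Gfi1-/- peak, against 18.2% of 20188 WT sites at tested genes. Of the 4 with a fold enrichment of at least 10, 3 had one, where 48.9% of such sites did. Of the 6 below 10, 0 had one, where 2.3% did. The value of 10 was set after the fold enrichments of the members had been seen.

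**Figure D5:**
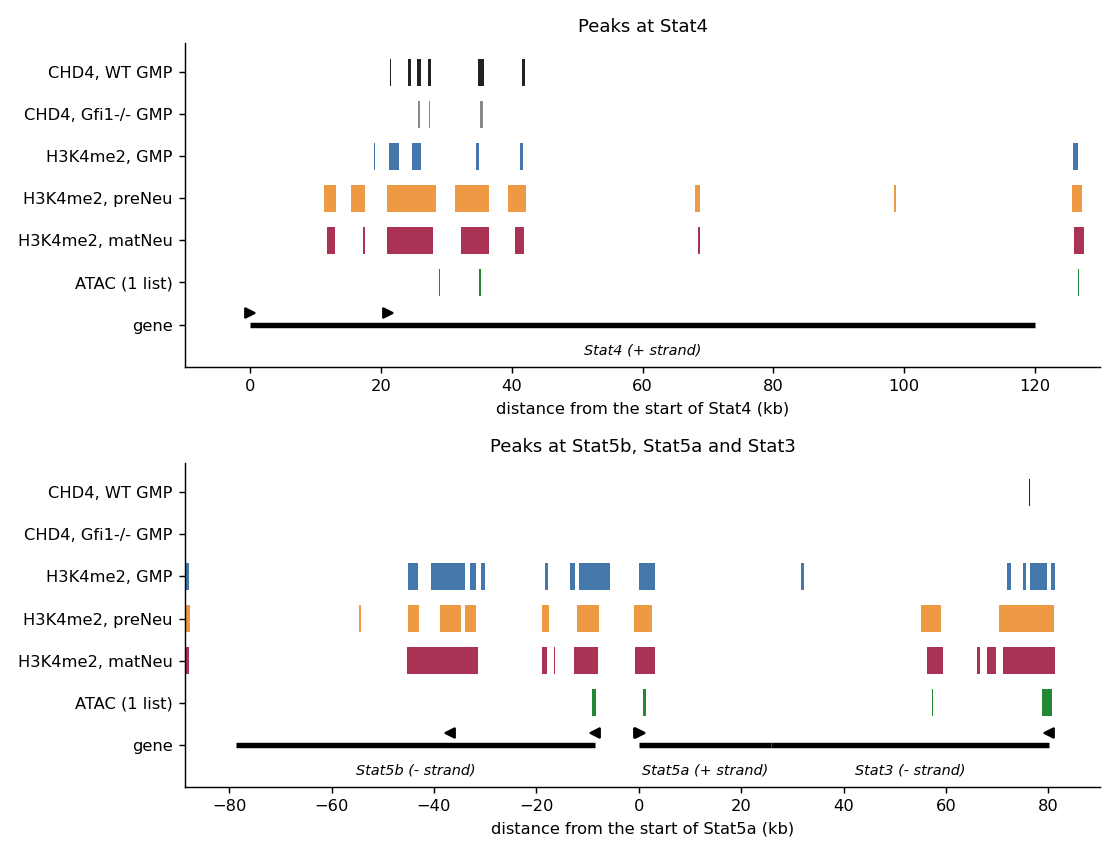
Peaks (boxes, drawn at least 0.25 kb wide) of each deposited list (rows) at Stat4 and at the cluster of Stat5b, Stat5a and Stat3, by distance in kb from the start of Stat4 and of Stat5a (x axis), with the gene bodies as bars and starts of principal transcripts as arrowheads. The CHD4 peaks of Stat4 lie within the H3K4me2 peaks of preNeu cells, and the first start of Stat4 has no peak in any row.

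A STAT motif was found in 3 of the 10 CHD4 windows of the STAT genes. TTCNNNNGAA matched in the window 7.3 kb upstream of Stat2, over the summit, and in the last Stat4 window, and TTCNNNGAA matched in the other Stat2 window. Over 35728 windows of 201 bp around WT CHD4 summits, 6.49% held TTCNNNNGAA and 7.57% held TTCNNNGAA. Of the 10 windows, 2 held TTCNNNNGAA and 1 held TTCNNNGAA. The share of all windows with either motif was not counted, so that the 3 of 10 has no share beside it. GAGGAAGT was found in 1 window, that of the third Stat4 peak (11.8% of all windows). AAATCA, a stretch of the GFI1 motif, was found in 0 of the 10 windows and in 12.1% of all windows. Shorter or inexact forms of the GFI1 motif were not counted. In RefSeq promoters of 300 bp on GRCm38, from 250 bases before to 50 after a start, all 6 genes had an entry. TTCNNNNGAA and AAATCA were found in the promoter of Stat2 (6.95% and 14.0% of 32851 promoters). Neither motif of the STAT factors was found in the promoters of the other 5 genes, and TTCNNNGAA occurs in 8.3% of all promoters. A match of letters is a description and not a shown binding site.

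H3K4me2 peaks covered 45.7 kb around the STAT genes in GMPs, 76.9 kb in preNeu cells and 74.7 kb in matNeu cells, in 27, 27 and 25 peaks. The 3 lists differ in extent as a whole, at 49.8, 97.9 and 80.4 Mb, there was 1 library per cell type, and no test was made. The lists were also cut to the length of the shortest by keeping the strongest peaks, which left 48.3 kb around the STAT genes in preNeu cells and 58.3 kb in matNeu cells. A promoter, from 2 kb before to 500 bp after the annotated gene start, was marked at 5 of the 6 genes in each cell type, where 80.3%, 83.4% and 82.2% of tested genes were marked in GMP, preNeu and matNeu cells.

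Stat4 was the gene without a mark at its annotated 5′ start, in all 3 lists. Its second start was covered by a domain of 7.53 kb in preNeu cells and of 7.09 kb in matNeu cells. In GMPs a peak of 1.58 kb began just downstream of the second start and did not cover it. The promoter of the first start had 2 CpG dinucleotides in 300 bp and that of the second 4, against a median of 7 over all promoters. At the other STAT genes the counts ran from 5 at a promoter of Stat5a to 50 at the 5′ start of Stat5b, with 7 at the other Stat5b promoter and 8 at Stat6. The mark covered 4.75 kb of the Stat4 window in GMPs, 21.9 kb in preNeu cells and 16.1 kb in matNeu cells. In lists of equal length these were 4.75, 14.1 and 12.9 kb.

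At Stat3 GMPs had 5 separate peaks, the widest 3.42 kb, while 1 domain ran over the start and the first part of the gene in preNeu cells (10.8 kb, fold enrichment 12.7) and in matNeu cells (10.03 kb, fold enrichment 8.16). The Stat3 window was covered over 6.16, 14.6 and 15.4 kb in the 3 cell types, and over 6.16, 10.8 and 10.03 kb in lists of equal length. The domain at the start holds the intronic CHD4 peak found in WT GMPs. At Stat6 a domain centered 9.1 kb upstream in preNeu cells, 6.82 kb wide there and 5.76 kb in matNeu cells, held the single CHD4 peak of Stat6 within its bounds. In the GMP list a peak of 0.64 kb (fold enrichment 2.38) overlapped this domain, outside the 10 kb window and away from the CHD4 peak. The mark covered 21.01%, 38.6% and 37.5% of the Stat6 window in GMP, preNeu and matNeu cells, where the median tested gene had 6.77%, 12.2% and 9.51%. Part of this lay at the neighbours Nab2 and Nemp1. Peaks centered there were 0.96 and 4.19 kb wide in GMPs, 0.34 and 3.94 kb in preNeu cells and 4.34 kb in matNeu cells. The peak over the Stat6 start was 2.83, 6.05 and 5.45 kb wide. In lists of equal length Stat6 had 7.98, 9.99 and 9.79 kb covered.

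Stat5a and Stat5b are 8626 bp apart, so that each window holds the start region of the other. At the Stat5b start the peak was 6.00 kb wide in GMPs, 4.17 kb in preNeu cells and 4.70 kb in matNeu cells, and at the Stat5a start 3.21, 3.47 and 3.95 kb. In GMPs the Stat5a peak began just downstream of the annotated gene start. A second start of Stat5b, inside the gene, lay in a domain of 13.8 kb in matNeu cells, which was broken into several peaks in GMPs and preNeu cells. The Stat5a window was covered over 8.22 kb in GMPs, 5.66 kb in preNeu cells and 6.08 kb in matNeu cells, and in lists of equal length these values did not move. The Stat5b window had 20.2, 17.5 and 22.9 kb covered, and 20.2, 11.6 and 21.5 kb in lists of equal length. Stat2 had 4.81, 7.16 and 4.16 kb covered, with a peak at its start in each list. In lists of equal length Stat2 had 4.81, 0.713 and 2.18 kb, so that the order of the cell types turned. Its window also holds peaks centered in the neighbours Il23a and Pan2, 28.1 and 32.9 kb downstream of the Stat2 start in preNeu cells. The 0.713 kb of preNeu cells lay in the Pan2 peak. The preNeu peak at the Stat2 start (fold enrichment 7.89) was not kept in the list of equal length. In GMPs the Stat2 window also had a peak 6.6 kb upstream, overlapping both of its CHD4 peaks, which was in neither of the later lists. Stat5a and Stat3 overlap by 72 bp on opposite strands, Stat6 and Nab2 by 40 bp, and whether reads were counted by strand is not given in the sources used here.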

How the data were processed

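RNA-seq values were TPM per gene and library as deposited by the authors, who list kallisto 0.44.0 among their tools. The authors' methods name a stranded library kit, Tophat alignment and HTSeq counting for RNA-seq. Which route gave the TPM is not given in the sources used here. TPM keeps no depth, and 0 value columns belonged to no sample. The deposited peak lists (BWA 0.7.17 and MACS2 2.1.0 are named in the submitters' processing notes, with mm10) give a fold enrichment, a linear ratio over background, and a −log10 q-value for each peak, both as the authors' caller wrote them. These were used only within a list. Samples were grouped by title, since the cell type label differs from the title in 13 of 18 samples. Both ATAC-seq files hold the same peaks, so they count as 1 list here. The GFI1 and H3K4me3 lists have peaks beyond the chromosome ends of GRCm38 and were not used here.

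Expression was tested with limma 3.58.1 (R 4.3.3) on log2(TPM + 1) fitted on cell type alone with a variance trend, and Benjamini-Hochberg adjustment over the 13061 genes that reached 1 TPM in 3 or more libraries. Changes are on the log2(TPM + 1) scale, which understates those of low genes. Simulated data served to test the script beforehand. Peaks were read with Python 3.11.15, pandas 2.3.3 and numpy 2.4.6, sequences with pysam 0.24.0, and plots were drawn with matplotlib 3.10.9. Peaks were assigned to a gene (GENCODE M21) when they overlapped it or 10 kb on either side by at least 1 bp. Members and lists were chosen with earlier results of these data known. Named genes were the 6 members, the 4 JAK kinases, from each other list the 2 largest rises and 2 largest falls past 0.05 between matNeu cells and GMPs, and the 3 genes most correlated with each member. Ifi44, Chil3, Cd3d, Klrk1 and the genes too low for the test were named after their values were seen. Replicate numbers did not pair the libraries. Alternatives were other pseudocounts, filters and scalings, a replicate block, leaving out each library, other windows, overlaps and q-value limits, and H3K4me2 lists of equal length.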

Additional observations from a re-analysis of the deposited data

How the results depend on the processing

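With median-ratio scaling 4709 genes were higher in matNeu cells than in GMPs and 0 members were lower. Between preNeu and GMP 3068 genes were then higher, 3600 were lower and 1 member was lower. Rescaling without the 50 most abundant genes also left 1 member lower, and leaving out 1 library at a time gave 1 to 2. Stat2 between preNeu and GMP changed sign (0.46 with median-ratio scaling, 0.34 without the 50 most abundant genes, 0.0141 as the highest and -0.1573 as the lowest value when 1 library was left out) and passed the test in none of these fits. Stat5b went to 0.0333 with median-ratio scaling, and Tyk2 between matNeu and preNeu to -0.0737 without the 50 most abundant genes. A replicate block, fitted although the numbers pair no libraries (r of same-numbered deviations -0.04 to 0.12, over 0.1 in 1 of 9 pairs, and 4 of 9 libraries closest to their own number), left 5 members higher and 1 lower in matNeu cells against GMPs. H3K4me2 peaks at the STAT genes within 25 kb numbered 42 in preNeu and 38 in matNeu cells. At a −log10 q-value of at least 5 there were 4 peaks over 13.8 kb in GMPs and 16 in matNeu cells. Lists of equal length gave 11 peaks over 48.3 kb in preNeu cells and 12 in matNeu cells. Beyond what follows from fewer peaks or another scaling, the cause was not tested. Depth is unknown for all libraries.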

Other observations

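Open chromatin by ATAC-seq was read from 1 list, whose cell type (preNeu or matNeu) is not settled. It had a peak at the start of Stat2 (310 bp wide), Stat3 (1973 bp), Stat5b (756 bp) and Stat6 (2214 bp), and none at either start of Stat4. At Stat5a a peak of 510 bp was centered 1.2 kb downstream of the annotated gene start. That peak covered no start of principal transcripts but overlapped a RefSeq promoter of Stat5a. At Stat4 a peak of 293 bp lay in the first part of the gene, within the bounds of the CHD4 peak of highest fold enrichment in WT GMPs.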
